A study of Mus musculus with 8 samples.

Results

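Genes for proteins that bind, edit or respond to double-stranded RNA (dsRNA) were examined in cultured Lewis lung carcinoma (LLC) cells, a mouse lung carcinoma line, with and without Argonaute 2 (Ago2), the endonuclease of RNA interference. The 8 genes were chosen by name for these roles, with earlier results of these data known. Matched to the count table by symbol, they were Ifih1, Dhx58, Adar, Adarb1, Eif2ak2, Zbp1, Dhx9 and Stau1. They are 8 of the 55487 genes counted, and 7 of them were among the 14228 genes that passed a filter on low counts and were tested. RNA was sequenced from 4 wild-type and 4 ΔAgo2 libraries, labelled as biological replicates 1 to 4 of each genotype and all as batch 1, and the comparison asks whether loss of Ago2 moved the transcripts of the dsRNA machinery. All cells grew in the same medium with serum and penicillin-streptomycin and received no stimulus that the labels name. The ΔAgo2 cells were made with a lentivirus carrying Cas9 and 1 guide against Ago2, were selected with puromycin and were sorted into single-cell clones, whereas no such steps are described for the wild-type line. Clonal differences and the loss of Ago2 therefore cannot be told apart, and the sources do not say which clone was sequenced or whether the replicates were separate cultures. The p-values measure the spread between these libraries, which may be technical.

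Long dsRNA is rare in healthy cells and is read as a sign of viral infection or of unsilenced repeats. The helicases MDA5, encoded by Ifih1, and RIG-I, encoded by Ddx58, bind it and signal through the adaptor MAVS to induce type I interferon, while the related LGP2, encoded by Dhx58, lacks the signaling domains and tunes both. ADAR1, encoded by Adar, and ADAR2, encoded by Adarb1, convert adenosine to inosine in dsRNA, which for ADAR1 keeps self RNA from being sensed. PKR, encoded by Eif2ak2, halts translation by phosphorylating eIF2α once dsRNA is bound, ZBP1 senses left-handed double helices and engages RIPK3 to trigger cell death, the helicase DHX9 unwinds RNA duplexes, and Staufen 1, encoded by Stau1, binds duplexes in transcripts and can send them to decay. Several of these genes are themselves induced by interferon through interferon-stimulated response elements (ISREs). Counts per gene report transcript levels and say nothing about editing, protein or kinase activity.

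Stretches of 30 bases around ISRE-core matches in the promoters are shown because they are the sequence feature by which interferon-inducible members are usually recognized. The letters GAAANNGAA were searched on both strands of RefSeq windows. These run from 250 bases before to 50 bases after a transcription start (GRCm38.p6). They were not given for Dhx58 and Zbp1, so 6 of the 8 genes were searched, in 9 windows. The letters were present in 3 of these windows, belonging to Ifih1, Adar and Eif2ak2, and in 8.56% of all 32851 windows. Sequences are written 5′ to 3′ on the strand of the gene, with the matched letters in capitals.
Ifih1, chr2:62646349-62646378, minus strand, match on the opposite strand before the start: aagaattcgcgTTCCCTTTCctgtttctca
Ifih1, chr2:62646206-62646235, minus strand, match after the start: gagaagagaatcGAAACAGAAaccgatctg
Adar, chr3:89730468-89730497, plus strand, match before the start: gGAAAAGGAActtcctcacagggcggagag
Adar, chr3:89730738-89730767, plus strand, match after the start: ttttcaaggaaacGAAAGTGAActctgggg
Eif2ak2, chr17:78882533-78882562, minus strand, 2 overlapping matches after the start: tccgccggGAAAACGAAACAGAAgagaacc
The Adar matches lay in 1 of its 3 windows, the one whose start is farthest into the gene. The letters TTCNNNGAA of a gamma-activated site, an element of interferon-gamma responses, were found in 2 of the 9 windows, at Adar (chr3:89730729-89730758, ggggaagccttTTCAAGGAAacgaaagtga) and Eif2ak2 (chr17:78882732-78882761, cctgcagagctTTCCCAGAAtggaagccag), and in 8.3% of all windows. The printed Adar stretch of this kind overlaps its second ISRE-core stretch, but the matched letters do not. Counted from the start, they lie at bases 23 to 31 and 34 to 42. Neither set of letters occurred in the windows of Adarb1, Dhx9 and Stau1, and a match or its lack describes letters only.

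Depth ran from 40740643 to 68530912 counts per library in wild-type cells and from 39628101 to 57595675 in ΔAgo2 cells. Ago2 itself, the targeted gene, was at 303.6 ± 165 CPM (counts scaled to library size with TMM factors; SD, n = 4) in wild-type cells against 351.5 ± 55.7 CPM without Ago2 (adjusted p = 0.9076, edgeR's quasi-likelihood test), so the libraries cannot be told apart by this transcript and are named by their labels. The paper checked the knock-out at the level of protein, by Western blot, which transcript counts do not report. Wild-type replicate 4 stood apart, with a median Spearman correlation of 0.864 with its group against 0.948 to 0.961 for the other wild-type libraries, with 0.54% mitochondrial counts against 2.39% to 4.51% in the other 7 libraries, and with deviations that followed the GC content of genes (rho = 0.72 across genes, not a replicated measure). Within groups, the median SD of log2 CPM (computed with a prior count of 2) was 0.783 in wild-type cells, 0.427 without this library and 0.234 in ΔAgo2 cells. Of the epithelial markers, Krt8 and Krt18 were expressed in all libraries and were highest in wild-type replicate 4, at 654 and 601 CPM. Elsewhere they ran from 38.2 to 178 CPM and from 75.2 to 330 CPM. Krt19 was at 0.149 to 3.54 CPM, while Epcam reached 1 count and Cdh1 9 counts at most. Of the mesenchymal markers, Vim was at 3070 to 6080 CPM and Fn1 at 1260 to 3630 CPM. Pdgfra was at 11.7 to 85.7 CPM, Cdh2 at 8.04 to 26.2 CPM and Col1a1 at 0.733 to 3.01 CPM. Of 6 immune markers, 5 stayed at or under 3 counts in every library, among them Ptprc and Cd3e, and Cd68 was at 4.56 to 38.3 CPM.

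Of the tested dsRNA genes, Ifih1 had the largest log2 fold change between genotypes and was higher in every ΔAgo2 library, Adarb1 was lower in every ΔAgo2 library, and the other 5 tested genes overlapped between genotypes. None of the 7 tested genes passed an adjusted p of 0.05 with edgeR's quasi-likelihood test, as did 0.295% of all tested genes. An unadjusted p under 0.05 was reached by 2 of the 7, Ifih1 and Adarb1, against 7.34% of all tested genes. The same pair had CPM values that did not overlap between genotypes, against 6.07% of all tested genes. The paper had already reported higher Ifih1 in cultured ΔAgo2 cells, and the members were chosen with earlier results of these data known. These counts beside all tested genes are therefore description only. DESeq2 called 1 of the genes, Ifih1, and 2.23% of the genes it tested.

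**Figure D1:**
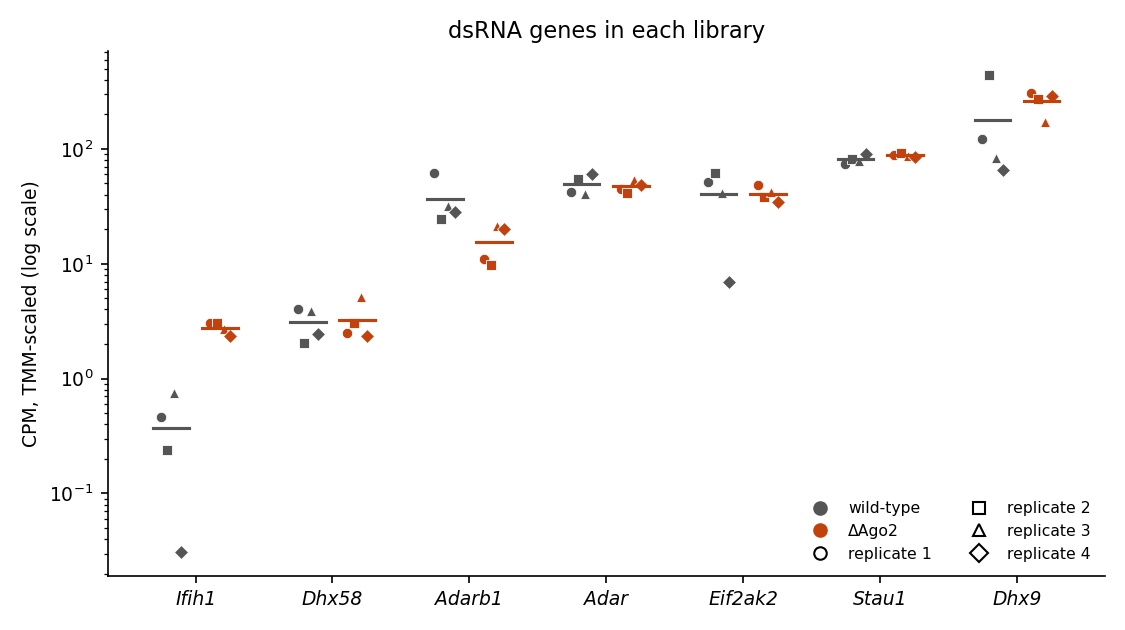
TMM-scaled CPM (log axis) of the 7 tested dsRNA genes in the 4 wild-type and 4 ΔAgo2 libraries, with 1 symbol per replicate number and a bar at the group mean; Zbp1, with 1 count at most in any library, is not drawn. Ifih1 separates upward and Adarb1 downward in ΔAgo2 cells, and wild-type replicate 4 (diamond) is the lowest library for Ifih1, Eif2ak2 and Dhx9.

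Among the sensors, Ifih1 (chromosome 2, 62595798 to 62646255, minus strand) drew 23, 17, 50 and 1 counts from wild-type replicates 1 to 4, against 187, 128, 110 and 125 counts from the ΔAgo2 replicates. After TMM scaling these were 0.468, 0.241, 0.743 and 0.031 CPM against 3.04, 3.04, 2.7 and 2.36 CPM. Every ΔAgo2 library therefore lay above every wild-type library, and the wild-type values had an SD of log2 CPM, with the prior count of 2, of 1.52 against 0.171. In bulk RNA, more expressing cells and more transcript per cell cannot be told apart. The wild-type mean of 0.371 ± 0.306 CPM (SD, n = 4) and the ΔAgo2 mean of 2.79 ± 0.325 CPM gave a log2 fold change of 2.87 (standard error 0.67) with an adjusted p of 0.1796 over all tested genes from edgeR. An exact permutation test on CPM gave p = 0.0286 (two-sided), the smallest that 4 against 4 libraries allow. The call depended on the libraries and settings used. In wild-type replicate 4, Ifih1 had 1 count, fewer than the 3 counts taken as the floor. Without this library the log2 fold change was 2.53 and the adjusted p 0.04008 with edgeR, under which 0.777% of all tested genes passed. With all 8 libraries kept, Ifih1 also passed with DESeq2 (adjusted p = 0.0001331) and in other settings given at the end. Its transcript was GC-poor (42.8%, against a median of 49.6% over tested genes), and with libraries corrected for GC content the log2 fold change was 2.81 and the adjusted p 0.04983 with edgeR, which became 3.04 and 0.0561 when the replicate block was added.

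Dhx58 (chromosome 11, 100694884 to 100704271, minus strand), the neighbor of MDA5 in the sensor family, did not follow it. It was at 4.05, 2.05, 3.88 and 2.45 CPM in wild-type replicates 1 to 4 and at 2.47, 3.06, 5.15 and 2.35 CPM in ΔAgo2 replicates 1 to 4. The groups overlapped almost completely, with means of 3.11 ± 1.0 and 3.26 ± 1.3 CPM (SD, n = 4) and a log2 fold change of 0.07 (standard error 0.41, adjusted p = 0.9773, edgeR). Ddx58, the gene of RIG-I, averaged 26.8 ± 12.2 CPM (wild-type) and 21.7 ± 4.57 CPM (ΔAgo2; SD, n = 4), with a log2 fold change of -0.31 (adjusted p = 0.8372, edgeR). The fold changes of both changed sign with single libraries left out, Dhx58 without ΔAgo2 replicate 3 (-0.25), wild-type replicate 2 (-0.10) or wild-type replicate 4 (-0.02), and Ddx58 without wild-type replicate 3 (0.05).

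Of the editing enzymes, Adar overlapped between genotypes and Adarb1 was lower in ΔAgo2 libraries. Adar (chromosome 3, 89715022 to 89753446, plus strand) was at 42.2, 54.4, 40.6 and 60.4 CPM in wild-type replicates 1 to 4 and at 45.1, 41.3, 54.0 and 48.7 CPM in ΔAgo2 replicates 1 to 4. These ranges were nested, with means of 49.4 ± 9.6 and 47.3 ± 5.4 CPM (SD, n = 4). Its log2 fold change of -0.06 (standard error 0.25, adjusted p = 0.9604, edgeR) became 0.05 when libraries were scaled by their size alone, which moved the median of all genes from -0.108 to -0.00773.

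Adarb1 (chromosome 10, 77290726 to 77418270, minus strand) was at 61.4, 24.5, 31.7 and 28.5 CPM in wild-type replicates 1 to 4 and at 10.9, 9.72, 21.1 and 20.0 CPM in ΔAgo2 replicates 1 to 4. All 4 ΔAgo2 libraries lay below the lowest wild-type library, and wild-type replicate 1 stood high. The wild-type mean was 36.5 ± 16.8 CPM (SD, n = 4) and the ΔAgo2 mean 15.4 ± 5.97 CPM, 2.36-fold higher in wild-type cells by the fit, with a log2 fold change of -1.24 (standard error 0.40) and an adjusted p of 0.423 from edgeR. The exact permutation test on CPM gave p = 0.0286 (two-sided). In the deposited TPM (values per gene length that sum to the same total in each library) the groups overlapped, because wild-type replicate 4 was at 5.61 TPM against 6.34 and 6.28 TPM in ΔAgo2 replicates 3 and 4. On that scale Ifih1 was the 1 gene of 7 whose groups did not overlap, against 6.19% of all tested genes. Among the alternatives for Adarb1, only limma with sample weights, which count divergent libraries less, gave an adjusted p under 0.05 (0.01981, with a log2 fold change of -1.89). Per 100 TPM of Adar, Adarb1 stood at 105, 32.4, 56.2 and 34.0 TPM in wild-type replicates 1 to 4 and at 17.4, 16.9, 28.2 and 29.6 TPM in ΔAgo2 replicates 1 to 4, a description of both values together.

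Of the effectors, Eif2ak2 (chromosome 17, 78852564 to 78882573, minus strand) was at 51.5, 62.1, 41.1 and 6.89 CPM in wild-type replicates 1 to 4 and at 48.1, 38.5, 41.8 and 34.4 CPM in ΔAgo2 replicates 1 to 4. Wild-type replicate 4 was the single low library, and the remaining 7 lay between 34.4 and 62.1 CPM. The means of 40.4 ± 23.9 and 40.7 ± 5.81 CPM (SD, n = 4) gave a log2 fold change of 0.0098 (standard error 0.52, adjusted p = 0.9975, edgeR). Without wild-type replicate 4 the wild-type mean was 51.6 ± 10.5 CPM (SD, n = 3) and the log2 fold change -0.34 (adjusted p = 0.5135, edgeR). Like Ifih1, this transcript was GC-poor (43.9%), and the part of that library's GC pattern in its low value was not tested.

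Zbp1 (chromosome 2, 173206612 to 173218923, minus strand) was at or under the floor in all 8 libraries. It had 1 count in wild-type replicate 3, 1 count in ΔAgo2 replicate 3 and 0 counts in the other libraries. At these depths 3 counts correspond to 0.0438 to 0.0757 CPM, so a level below that was not detectable, no fold is given, and the gene did not pass the filter for testing.

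The abundant duplex-binding genes behaved unlike each other across the wild-type libraries. Dhx9 (chromosome 1, 153455758 to 153487660, minus strand) was at 123, 444, 84.0 and 64.9 CPM in wild-type replicates 1 to 4 and at 304.2, 274, 172 and 292 CPM in ΔAgo2 replicates 1 to 4. Wild-type replicate 2 exceeded every ΔAgo2 library, whereas the other 3 wild-type libraries lay below all of them. The means were 179 ± 178 and 260 ± 60.3 CPM (SD, n = 4), with a log2 fold change of 0.54 (standard error 0.56, adjusted p = 0.8231, edgeR). Without wild-type replicate 2 the log2 fold change was 1.51 and still did not pass (adjusted p = 0.1213, edgeR). Without wild-type replicate 4, the lowest library for Dhx9, it was 0.26 (adjusted p = 0.8695, edgeR). Without wild-type replicate 3 it was 0.31 (adjusted p = 0.8521, edgeR). DESeq2 gave Dhx9 no adjusted p.

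Stau1 (chromosome 2, 166947549 to 166996299, minus strand) had the smallest spread of the 7 tested genes in both genotypes. It was at 73.9, 81.7, 78.9 and 91.2 CPM in wild-type replicates 1 to 4 and at 89.2, 91.5, 86.6 and 85.9 CPM in ΔAgo2 replicates 1 to 4. Its wild-type SD of log2 CPM was 0.127, and 0.935% of tested genes had a lower one, against an SD of 1.23 for Dhx9 and 1.52 for Ifih1. The means of 81.4 ± 7.27 and 88.3 ± 2.59 CPM (SD, n = 4) gave a log2 fold change of 0.12 (standard error 0.22, adjusted p = 0.9067, edgeR). Without wild-type replicate 4, an alternative added after the data were seen, Stau1 joined Ifih1 and Adarb1 as a gene whose groups did not overlap, so that 3 of 7 did so against 12.1% of all tested genes.

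**Figure D2:**
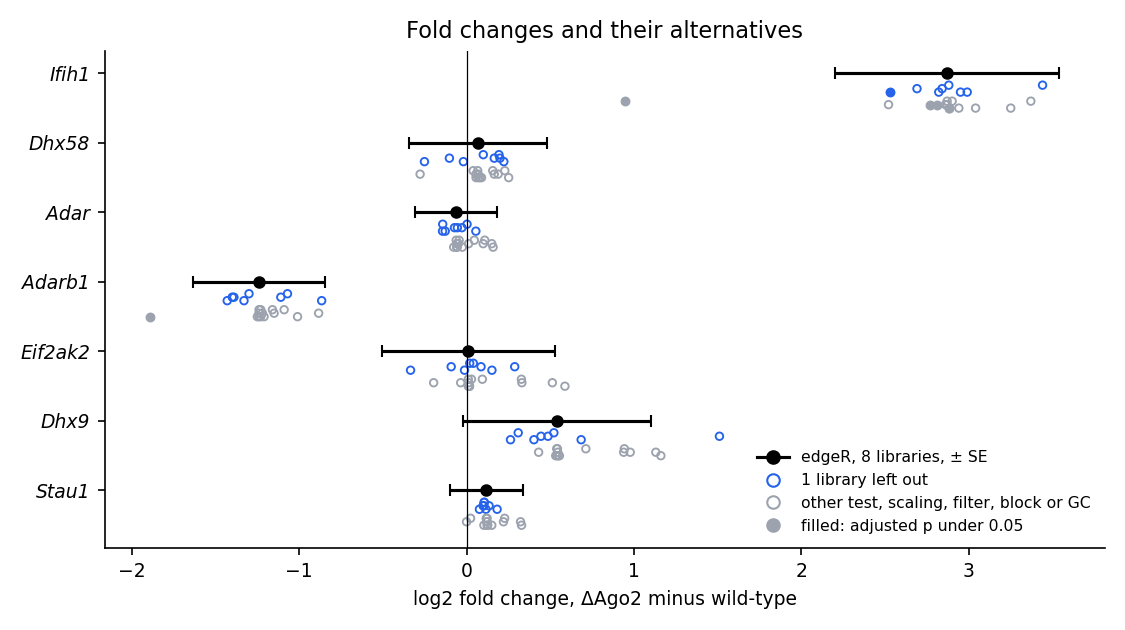
Log2 fold change (ΔAgo2 minus wild-type) of the 7 tested dsRNA genes: black points with bars are edgeR estimates ± standard error over 8 libraries, and small circles are the 22 alternatives, blue for 1 library left out and grey for another test, scaling, filter, block or GC correction, filled where the adjusted p was under 0.05. Ifih1 stayed between 0.948 and 3.44 and Adarb1 between -1.89 and -0.866, while Dhx58, Adar, Eif2ak2 and Stau1 had estimates on both sides of 0.

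Per gene length, the 8 transcripts had the same order of mean TPM in both genotypes: Dhx9, Stau1, Eif2ak2, Adar, Adarb1, Dhx58, Ifih1 and Zbp1. Means fell from 66.3 ± 77.0 TPM (SD, n = 4) for Dhx9 through 19.0 ± 4.86 TPM for Adar to 0.155 ± 0.125 TPM for Ifih1 in wild-type cells. In ΔAgo2 cells they fell from 97.7 ± 25.7 TPM for Dhx9 through 20.8 ± 1.68 TPM for Adar to 1.23 ± 0.185 TPM for Ifih1. In wild-type cells the ranges of neighbors in this order overlapped, except between Adarb1 and Dhx58 and between Dhx58 and Ifih1. In ΔAgo2 cells only those of Adarb1 (3.13 to 6.34 TPM) and Dhx58 (2.53 to 5.32 TPM) overlapped. Even at its ΔAgo2 level, Ifih1 was thus the least abundant of the 7 tested members.

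Ifih1 was also set against the other genes inside each library, as the log2 ratio of TPM + 0.1. All 8 ratios, to the other 7 members and to Ddx58, share Ifih1, whose own TPM groups did not overlap, so they are not separate results. Each ΔAgo2 library was above each wild-type library for 7 of the 8, with an exact permutation p of 0.0286 for each (two-sided, adjusted p = 0.0327 over the 8 ratios), and 1 of these is the ratio to Zbp1, which was near 0 TPM. Against Ddx58 the log2 ratio rose from -5.59 ± 0.229 (SD, n = 4) in wild-type to -3.05 ± 0.159 in ΔAgo2 cells, a difference of 2.54. Against Dhx58 the difference was 2.27, against Adar 2.36, against Stau1 2.19 and against Eif2ak2 1.93. The largest difference was against Adarb1, at 3.52, and that against Zbp1, at 2.49, is Ifih1's own difference over the constant. Against Dhx9 the groups overlapped, with a difference of 1.36 (exact permutation p = 0.0857, adjusted p = 0.0857). The sizes depended on the added constant, since wild-type Ifih1 was at 0.01 to 0.31 TPM. Against Adar, the difference was 3.29 with log2(TPM + 0.01), 2.96 with log2(CPM + 0.1) and 0.80 with log2(TPM + 1), and against Adarb1 it was 4.47, 4.13 and 1.83 in the same order. With log2(TPM + 0.01) and with log2(CPM + 0.1), 7 of the 8 ratios passed, and with log2(TPM + 1) none did and that to Dhx9 turned to -0.18, although 4 had an unadjusted exact permutation p of 0.0286. In direct terms, Ifih1 stood at 1.67, 0.99, 1.44 and 0.193 TPM per 100 TPM of Ddx58 in wild-type replicates 1 to 4 and at 9.92, 10.8, 12.1 and 12.3 in ΔAgo2 replicates 1 to 4.

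**Figure D3:**
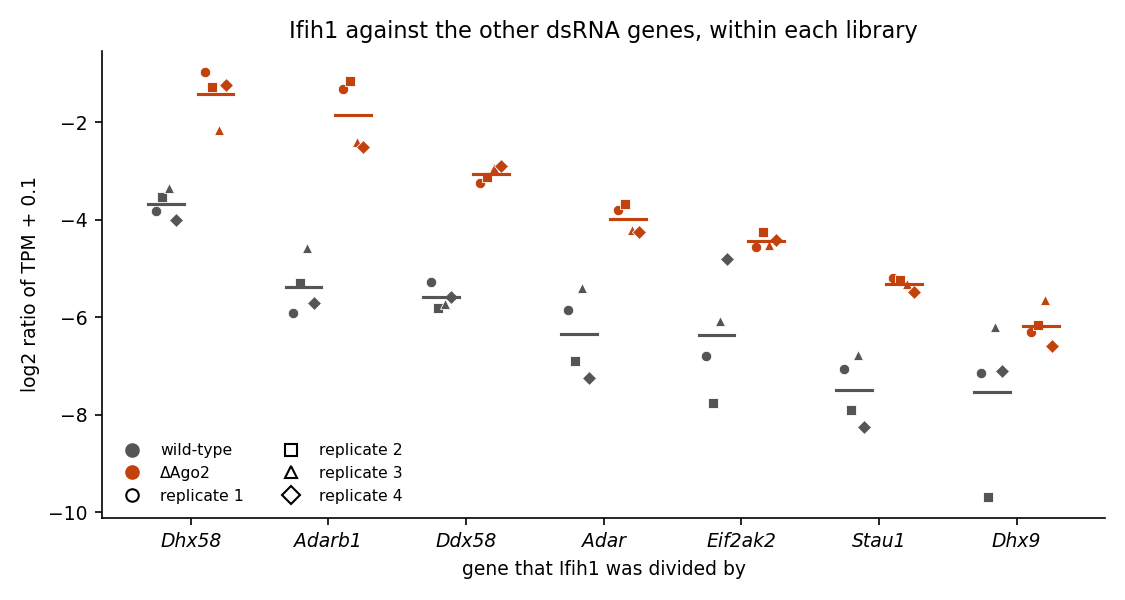
Log2 ratio of Ifih1 to 6 other dsRNA genes and to Ddx58 in each library (TPM + 0.1), with 1 symbol per replicate number and a bar at the group mean. The ΔAgo2 libraries lie above all wild-type libraries for each partner but Dhx9, and wild-type replicate 4 is the highest wild-type library against Eif2ak2.

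The wider dsRNA machinery was read from 7 lists of 107 genes, of which 90 were tested and none passed an adjusted p of 0.05 with edgeR. At an unadjusted p under 0.05, 2 genes were higher and 0 lower in ΔAgo2 cells, against 2.72% and 4.62% of all tested genes. Over the lists, log2 fold changes had a median of -0.00499, beside -0.108 over all tested genes. Groups did not overlap for 4 genes that were higher and 1 that was lower, against 3.09% and 2.98% of all tested genes. Ikbke and Stau2 were among the higher genes, and the lower gene was Samhd1, named after its values were seen.

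Among the other dsRNA sensors and adaptors, 23 of 29 genes were tested and the median was 0.139. Ikbke, which encodes the kinase IKKε that phosphorylates IRF3, was at 25.99, 15.0, 18.6 and 23.2 CPM in wild-type replicates 1 to 4 and at 39.8, 40.5, 38.6 and 26.05 CPM in ΔAgo2 replicates 1 to 4, with the highest wild-type and lowest ΔAgo2 library nearly touching. The fit gave 0.81 on the log2 scale (standard error 0.28, adjusted p = 0.505, edgeR). Oasl2, an oligoadenylate synthetase-like gene, averaged 0.342 ± 0.327 CPM (wild-type) and 0.93 ± 0.478 CPM (ΔAgo2; SD, n = 4), with overlapping groups. Its log2 fold change of 1.43 (adjusted p = 0.7059, edgeR) was 2.36 without wild-type replicate 3 (adjusted p = 0.2769, edgeR). Without ΔAgo2 replicate 4, its highest library, it was 1.05 (adjusted p = 0.9785, edgeR).

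Among the other dsRNA-binding proteins, 16 of 19 genes were tested, with a median of 0.0908. Stau2, the paralog of Stau1, was at 6.41, 3.5, 5.08 and 3.17 CPM in wild-type replicates 1 to 4 and at 11.4, 12.0, 6.52 and 10.6 CPM in ΔAgo2 replicates 1 to 4. ΔAgo2 replicate 3 was only just above the highest wild-type library, and the fit gave 1.16 on the log2 scale (standard error 0.36, adjusted p = 0.3996, edgeR). Tarbp2, a Dicer partner, was at 45.6 ± 30.7 and 28.4 ± 3.93 CPM (SD, n = 4), with a log2 fold change of -0.68 (adjusted p = 0.7381, edgeR) that was -0.082 without wild-type replicate 4, its highest library at 91.6 CPM.

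In the list for PKR and the eIF2 pathway, all 18 genes were tested, with a median of -0.014 and 10 of 18 below 0. Among them were genes of eIF2, its other kinases, its exchange factor and the stress granule. Ddit3 had the lowest log2 fold change of the list, -1.33 (adjusted p = 0.744, edgeR), with overlapping groups. This estimate leaned on wild-type replicate 3, which held 10614 counts against 776, 891 and 242 in wild-type replicates 1, 2 and 4. ΔAgo2 replicates 1 to 4 held 563, 463, 1227 and 1431 counts, so no direction is read from it. The smallest p belonged to G3bp2, which encodes a stress granule nucleator (log2 fold change 0.63), and to Eif2b5, a subunit of the eIF2 exchange factor (log2 fold change -0.77). Without wild-type replicate 4, where Eif2b5 was at 303.8 CPM, its log2 fold change was -0.053. For ZBP1's partners in cell death, 7 of 8 genes were tested, with a median of 0.296. Ripk3 did not pass the filter for testing, with 12, 5, 6 and 10 counts in wild-type replicates 1 to 4. It had 2, 1, 0 and 0 counts in ΔAgo2 replicates 1 to 4. Ripk1, a kinase that joins this complex, was at 42.6 ± 15.9 and 56.5 ± 5.69 CPM (SD, n = 4), with overlapping groups and a log2 fold change of 0.41 (adjusted p = 0.7599, edgeR).

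For Staufen-mediated decay, 9 of 9 genes were tested, 8 had a log2 fold change below 0 and the median was -0.244. Below 0 also lay 8364 of the 14228 tested genes. Upf1, the helicase that Staufen recruits, averaged 141 ± 55.3 and 104 ± 5.48 CPM (SD, n = 4; log2 fold change -0.44), and Smg5, a decay factor of the same pathway, had a log2 fold change of -0.77. Wild-type replicate 4 held the highest value of both genes, at 221 and 286 CPM, and without it their log2 fold changes were -0.14 and -0.21. Without this library the median of the decay list was -0.285 and that of all tested genes -0.0341. With libraries corrected for GC content instead, these medians lay closer together, at -0.131 and -0.0889. Of the nucleases and helicases that limit self RNA, 9 of 10 were tested with a median of -0.0932, and the RNase H2 subunits Rnaseh2c (-0.79) and Rnaseh2a (-0.62) had the smallest p, with both fold changes above 0 without wild-type replicate 4. Samhd1, a nucleotide hydrolase, was at 117 ± 13.5 and 103 ± 3.44 CPM (SD, n = 4), a log2 fold change of -0.19 that lay above 0 with TPM.

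On the interferon side, 8 of 14 genes were tested, with a median of -0.101 and 4 genes on each side of 0. Ifnb1, the interferon that MDA5 induces, had 1 count in all 8 libraries together. Its receptor subunit Ifnar1 was at 48.8 ± 4.96 and 49.2 ± 5.94 CPM (SD, n = 4). Stat2 and Tyk2 had log2 fold changes of -0.39 and -0.43, and the signs of Tyk2 and Ifnar1 were not stable across alternatives.

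**Figure D4:**
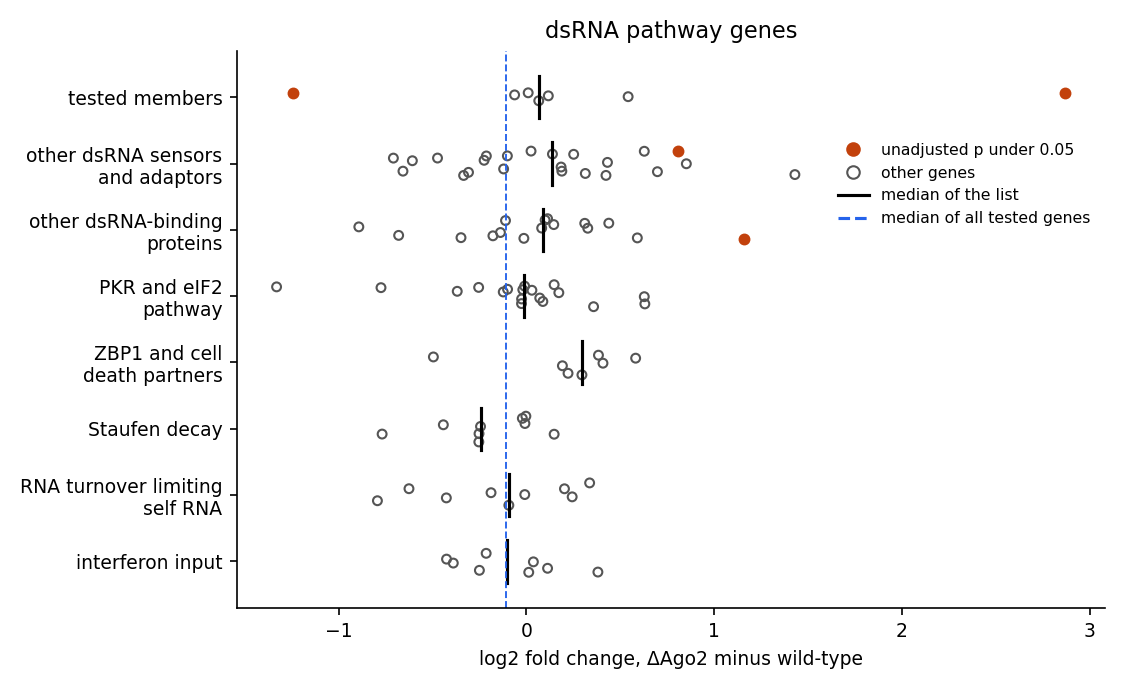
Log2 fold change (ΔAgo2 minus wild-type) of each tested gene of the 7 dsRNA lists, with the 7 tested members in the top row, a black bar at each list's median and a dashed line at the median of all tested genes (-0.108); vertical scatter within a row has no meaning. Filled points have an unadjusted p under 0.05: Ifih1 and Adarb1 in the top row, Ikbke and Stau2 below.

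None of the nearest tested genes on either side of the members passed an adjusted p of 0.05. The neighbors of Ifih1, Psmd14 and the pseudogene Gm13577, had log2 fold changes of 0.32 and 0.95 (adjusted p = 0.793 and 0.637, edgeR), and those of Adarb1, Pofut2 and Fam207a, had -0.83 and -0.59 (adjusted p = 0.641 and 0.752, edgeR). Other annotated genes overlapped Dhx58 (Dhx58os, 0 to 2 counts), Adar (Chrnb2, 1 to 22 counts) and Eif2ak2 (Gm26637, 2 to 53 counts, and n-R5s29, 0 to 3 counts), all far fewer than the counts of the member. The library kit keeps strand, but the strand setting of the counting is not given in the sources used here.

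Across the 8 libraries, the tested genes whose log2 CPM was most like that of Ifih1 were Efna5, Adamtsl3, Elovl4, Chn1 and Nrp2, with Pearson's r of 0.992, 0.989, 0.984, 0.983 and 0.981. Their own log2 fold changes ran from 1.15 for Elovl4 to 1.72 for Chn1, with adjusted p of 0.196 for Adamtsl3 to 0.613 for Elovl4 (edgeR). Adarb1 was most like Gm5526 (r = 0.963) and Dtx4 (r = 0.957), and Dhx9 was most like Recql (r = 0.994) and Cdc123 (r = 0.992). Eif2ak2 matched Rbm12b2 and Syne2 at r = 0.995 each, which was 0.95 and 0.933 without wild-type replicate 4. The closest profiles were Gm11951 (r = 0.982) and Hibadh (r = 0.972) for Dhx58, Gm6981 (r = 0.959) and Hist1h3a (r = 0.939) for Adar, and Gm21887 (r = 0.969) and Olfml3 (r = 0.965) for Stau1. These correlations describe 8 points that share genotype, library, depth and base composition.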

How the data were processed

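The labels describe stranded, paired-end libraries of 100 bp reads from LLC cells. The authors aligned reads to a ribosomal RNA database before mm10 (STAR, per the submitters' processing notes) and deposited featureCounts gene counts without normalization. The authors also deposited TPM, which are scaled to gene length and library total. The annotation release and strand setting are not given in the sources used here. Symbols, positions and GC content came from GENCODE (GRCm38), and 93 of 55487 identifiers had no match. Groups follow the labels. Genes passing edgeR's filterByExpr were normalized with TMM and tested with edgeR 4.0.16 in R 4.3.3 (quasi-likelihood, two-sided, Benjamini-Hochberg over 14228 genes, genotype as the only factor). Standard errors follow from the fold change and the square root of F. Log2 CPM for correlations and for SDs used a prior count of 2. The script was tested on simulated data. Exact permutation tests covered all 70 divisions of the 8 libraries.

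The members and lists were chosen with earlier results of these data known. Besides members, the genes named are fixed checks, cell type markers, the smallest p of each list, chromosomal neighbors or overlapping genes, and the closest profiles. Outside these rules, Samhd1 was added after its values were seen, Ddit3 was named for its fold change, and Ripk3 was named though not tested. Alternatives were DESeq2 1.42.0, limma 3.58.1 (voom, sample weights, and log2 of TPM plus 0.1 or 1), RLE, upper-quartile or no scaling factors, other filters, robust dispersion, a replicate block, a GC offset (lowess span 0.3) and each library left out. Precision is limited by counting below the 3-count floor and otherwise by the spread between libraries. Protein features were not analysed here, and the results for 3 of the listed genes are not reported here.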

Additional observations from a re-analysis of the deposited data

How the results depend on the processing

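Of 22 alternatives, Ifih1 stayed positive in all and passed an adjusted p of 0.05 in 6 (log2 fold change and adjusted p in parentheses): DESeq2 (2.88, 0.0001331), limma with sample weights (2.77, 0.007147), limma on log2(TPM + 1) (0.948, 0.03759), without wild-type replicate 4 (2.53, 0.04008), no filter on low counts (2.88, 0.04486) and the GC offset (2.81, 0.04983). Its largest adjusted p was 0.4382, without ΔAgo2 replicate 1. Adarb1 passed only with sample weights (-1.89, 0.01981). The number of members called was therefore 1 under those settings and 2 with sample weights, and 0 to 1 with a library left out. Members whose groups did not overlap numbered 1 with TPM, an alternative added after the data were seen. The number of all tested genes called, 42, became 399 with DESeq2, 257 with sample weights, 143 with no filter, 71 with the GC offset, 65 with the GC offset and replicate block, 15 with limma on log2(TPM + 1) and 1 to 113 with a library left out (113 without wild-type replicate 4, 1 without ΔAgo2 replicate 1). The cause of these shifts was not tested.

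The replicate numbers were not treated as pairs: deviations of same-numbered libraries correlated at -0.138, -0.0491, 0.384 and 0.0278, and only wild-type replicate 3 correlated best with its own number. With a replicate block, 18 genes and 0 members were called, and Ifih1 had a log2 fold change of 3.25 (adjusted p = 0.1862, edgeR).

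Signs that reversed all belonged to differences that did not pass. With sample weights they were Dhx58 (-0.28), Adar (0.012), Eif2ak2 (-0.20), Smg5 (0.13), Tyk2 (0.052) and Eif2b5 (0.000332). With the GC offset they were Adar (0.10, and 0.11 with the block), Eif2ak2 (-0.036) and Stau1 (-0.000651). On log2(TPM + 0.1) and log2(TPM + 1), Adar was at 0.16 and 0.15 and Samhd1 at 0.026 and 0.0245, where the median of all genes was 0.223 and 0.152, and with library size alone Adar was at 0.046. Ifnar1 was at -0.000757 with RLE factors. With a library left out, ranges spanned 0 for Dhx58 (-0.25 to 0.22), Adar (-0.14 to 0.055), Eif2ak2 (-0.34 to 0.29), Ago2 (-0.047 to 0.60), Ifnar1 (-0.067 to 0.080), Ddx58 (-0.48 to 0.051), Rnaseh2c (-1.07 to 0.045) and Rnaseh2a (-0.83 to 0.056), and Ifih1 ran from 2.53 to 3.44. With log2(TPM + 1), 0 of the 8 Ifih1 ratios passed (against 7) and that to Dhx9 reversed to -0.18. Depth limited Zbp1, at the floor throughout, and the wild-type level of Ifih1, which rested on 1 to 50 counts a library.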
